A study of Mus musculus with 4 samples.

Results

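Gm42031, Gm46620, Gm43305, Gm21887, Gm42047, mt-Atp8, Wdfy1, Snhg20 and E430024P14Rik are 9 of the 32285 genes counted in single cells of B16 melanoma from WT and VISTA-KO mice. They were picked by name because their levels differed between the genotypes in the same direction in 5 kinds of cells of these same libraries. The differences described below are therefore the values that chose them, and none was tested. The kinds were set by each cell's own unique molecular identifiers (UMIs, counts of distinct RNA molecules). CD8 cells had at least 1 UMI of Cd8a or Cd8b1 and none of Cd4, conventional CD4 cells had a Cd4 UMI and none of Foxp3, and regulatory cells had UMIs of Foxp3 and Cd4. Siglech cells had at least 2 UMIs of Siglech, a plasmacytoid dendritic cell gene, and C1q cells at least 5 UMIs over C1qa, C1qb and C1qc, complement genes of macrophages.

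Both genotypes carried Vsir, the gene of the immune checkpoint VISTA, flanked by loxP sites (Vsir fl/fl) on a C57BL/6 background. VISTA-KO mice also carried CD4-Cre, whose Cd4 promoter removes the floxed part in developing T cells, and WT mice were littermates without Cre. All mice bore B16 melanoma, received a TRP2 peptide vaccine with CpG and R848 on day 3 and 100 µg of anti–CTLA-4 antibody on days 4 and 8, and the T cells in the tumors were taken by enriching and sorting for CD4 and CD8. The methods describe pools of 5 to 6 mice per genotype and a legend of the study 6 to 8 tumors, and this conflict could not be settled. Each genotype was 1 library, with no replicate and no known spread between animals. For the study's melanoma model in general, mice of both sexes received tumor cells at an age of 6 to 8 weeks. Neither age nor sex is stated for the pooled mice themselves. The C57BL/6 substrain of the floxed and Cre lines is not given in the sources used here, and genotype and library cannot be told apart.

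The 9 genes share no known pathway. Gm42031, Gm43305, Snhg20 and E430024P14Rik are annotated as long noncoding RNAs, transcripts that are processed like messenger RNA but encode no known protein. mt-Atp8 encodes a membrane subunit of the ATP synthase on the mitochondrial genome, where its reading frame runs into that of mt-Atp6, another subunit on the same transcript. WDFY1 is an endosomal adaptor with a FYVE domain, which binds a membrane lipid, and Snhg20 belongs to the host genes whose introns can carry small nucleolar RNAs. RefSeq lists Gm21887 as another name of Erdr1, a transcribed pseudogene at the end of the X chromosome.

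Of the 9 genes, 7 were matched to RefSeq annotation of GRCm38.p6, the build of the count tables. Gm42031 (ENSMUSG00000110386) lies at chr8:85125923-85131814 and Gm43305 (ENSMUSG00000105703) at chr14:54292441-54297488, the latter beyond Trac, the T cell receptor alpha constant gene. Gm21887 (ENSMUSG00000095562) lies at chrX:170010526-170018797, Wdfy1 (ENSMUSG00000073643) at chr1:79702262-79776143 and Snhg20 (ENSMUSG00000086859) at chr11:117076783-117078955. mt-Atp8 (ENSMUSG00000064356) occupies bases 7766 to 7969 of the mitochondrial genome, the last 43 of which also belong to mt-Atp6. E430024P14Rik (ENSMUSG00000090069) is listed as Gm1604a, at chr17:7855073-8108015, an interval that contains the whole of Tagap, a T cell activation gene. Gm46620 (ENSMUSG00000118012) and Gm42047 (ENSMUSG00000110631) are named only.

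Gm42031 and Gm43305 start from nearly the same sequence although they lie on different chromosomes. Their start windows, 250 bases before to 50 bases after the annotated start, are at chr8:85131765-85132064 and chr14:54297439-54297738 of GRCm38.p6, both on the minus strand. They aligned over 297 of 300 bases with 4 differences and no gap, an identity of 98.7%. Of 32851 start windows in RefSeq, 4 aligned with that of Gm42031 over at least 100 bases: those of Gm43305, Gm40814, Gm33887 and Gm40843. The stretch shared with Gm40843 was 124 bases, identical in every base, and ran from 74 bases before the start to 50 bases after it. None of these last 3 genes was in the count tables. Both members hold TATAAA 27 bases before the start, a motif present on either strand in 13.6% of all windows. The shared letters read as the long terminal repeat of a murine leukemia virus type provirus, an inherited retroviral insertion in the mouse genome. That name comes from general knowledge, since no provirus was compared here, and the letters are not printed. Reads that fit several such copies equally well are not counted by Cell Ranger, so that the levels of both genes are uncertain.

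The windows of Snhg20 and Gm1604a are shown for contrast, since neither aligned with that of Gm42031 or Gm43305 over 100 bases. That of Snhg20 (chr11:117076533-117076832, plus strand) had 25 CG pairs, against a median of 7 over all windows, and held GGGCGG, found on either strand in 35.7% of windows. That of Gm1604a (chr17:7946377-7946676, minus strand) had 5, and runs opposite to Tagap, which lies on the plus strand. Another start of Gm1604a, at chr17:8107966-8108265, had 1 and held CCAAT, found in 37.4% of windows. Neither Snhg20 nor either window of Gm1604a held TATAAA, and none of the windows named here held TGACTCA, found in 5.20%. Sequences are from RefSeq, 5′ to 3′, with CG pairs in capitals.
Snhg20: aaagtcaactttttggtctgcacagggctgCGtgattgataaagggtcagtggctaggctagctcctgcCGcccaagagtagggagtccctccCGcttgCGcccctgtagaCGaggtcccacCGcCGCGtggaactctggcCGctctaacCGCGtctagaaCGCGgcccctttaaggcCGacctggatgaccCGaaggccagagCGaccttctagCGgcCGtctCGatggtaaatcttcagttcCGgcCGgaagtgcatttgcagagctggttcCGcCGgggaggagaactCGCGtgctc
Gm1604a: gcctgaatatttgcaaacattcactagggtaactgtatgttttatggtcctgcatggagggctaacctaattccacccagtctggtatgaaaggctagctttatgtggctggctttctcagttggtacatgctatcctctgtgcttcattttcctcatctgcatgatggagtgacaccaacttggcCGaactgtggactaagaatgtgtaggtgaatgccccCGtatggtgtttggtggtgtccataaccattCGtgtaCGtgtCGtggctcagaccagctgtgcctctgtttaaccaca

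The libraries had similar median depth over all cells but not within each kind, and the kinds of cells were not separate samples. After filtering, 10224 WT and 9946 VISTA-KO cells remained, with medians of 4723 and 4670.5 UMIs and of 0.874% and 0.888% mitochondrial UMIs, and 144 of their barcodes occurred in both libraries. There were 5549 WT and 4350 VISTA-KO CD8 cells, 1768 and 3048 conventional CD4, 1528 and 1270 regulatory, 221 and 138 Siglech and 124 and 74 C1q cells. Median UMIs per cell were 8838.5 in WT and 5939 in VISTA-KO regulatory cells and 13693.5 and 7592.5 in C1q cells, while those of the other kinds were closer, and the part of this difference in the levels was not tested. Below, a pair of levels gives WT first and VISTA-KO second. The summed level of 5 plasmacytoid dendritic cell markers in Siglech cells was 9121 CPM (counts of a gene's UMIs per 1e6 UMIs of those cells) in the WT library and 10398 CPM in the other, against 500.1 and 497.1 CPM in CD8 cells. In conventional CD4 cells these markers summed to 1355 and 728 CPM, and 107 WT and 65 VISTA-KO cells of that kind were also Siglech cells. Most Siglech cells (211 of 221 and 124 of 138) and C1q cells (118 of 124 and 70 of 74) also met the definition of a T cell kind. In C1q cells, 6 macrophage markers summed to 2403 and 4538 CPM, but 97.6% and 97.3% of these cells also had a UMI of Cd3d, Cd3e or Cd3g, and Cd3e, a T cell receptor subunit, stood at 1335 and 1139 CPM, near its 1583 and 1550 CPM in CD8 cells. The same 6 markers, of which C1qa, C1qb and C1qc define the kind, summed to 98.6 and 109 CPM in CD8 cells. Csf1r, which does not define it, stood at 58.9 and 122 CPM in C1q and 3.55 and 2.46 CPM in CD8 cells. C1q cells thus carried macrophage and T cell RNA together. A label of macrophages alone was not borne out for them, and they are named by their rule. Of Siglech cells, 42.5% and 30.4% had a UMI of Cd3d, Cd3e or Cd3g. Vsir itself stood at 112 and 111 CPM in CD8 cells, but UMIs outside the floxed part do not check the deletion. In pooled cells, fewer cells with a transcript and less of it per cell cannot be told apart.

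A difference was called when the log2 of the VISTA-KO to WT ratio of CPM + 5 was at least 0.5 in size, among genes with at least 20 CPM in 1 library and 30 UMIs over both. In CD8 cells 1.78% of 6083 measured genes passed, with 1.08% higher and 0.69% lower in VISTA-KO. In conventional CD4 cells 4.25% passed, 1.5% higher and 2.75% lower, and in regulatory cells 5.33%, 2.83% higher and 2.5% lower. In Siglech cells 9.04% passed, 3.73% higher and 5.31% lower, and in C1q cells 19.3%, 10.1% higher and 9.18% lower, so that a call in C1q cells was common. Of the 9 genes, 5 passed in all 5 kinds, namely Gm42031, Gm46620, Gm43305 and Snhg20, lower, and E430024P14Rik, higher. Gm21887 passed in the 4 kinds in which it was measured. mt-Atp8 passed in 4, Wdfy1 in 3 and Gm42047 in 2, so that the group is not shifted past that size in every kind. All 9 had 1 sign in the 5 kinds. Over the 5264 genes measured in all 5 kinds, 0.266% passed in each with 1 direction, 14 genes in all, 0.152% higher and 0.114% lower. The other 9 of these are described further on.

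**Figure D1:**
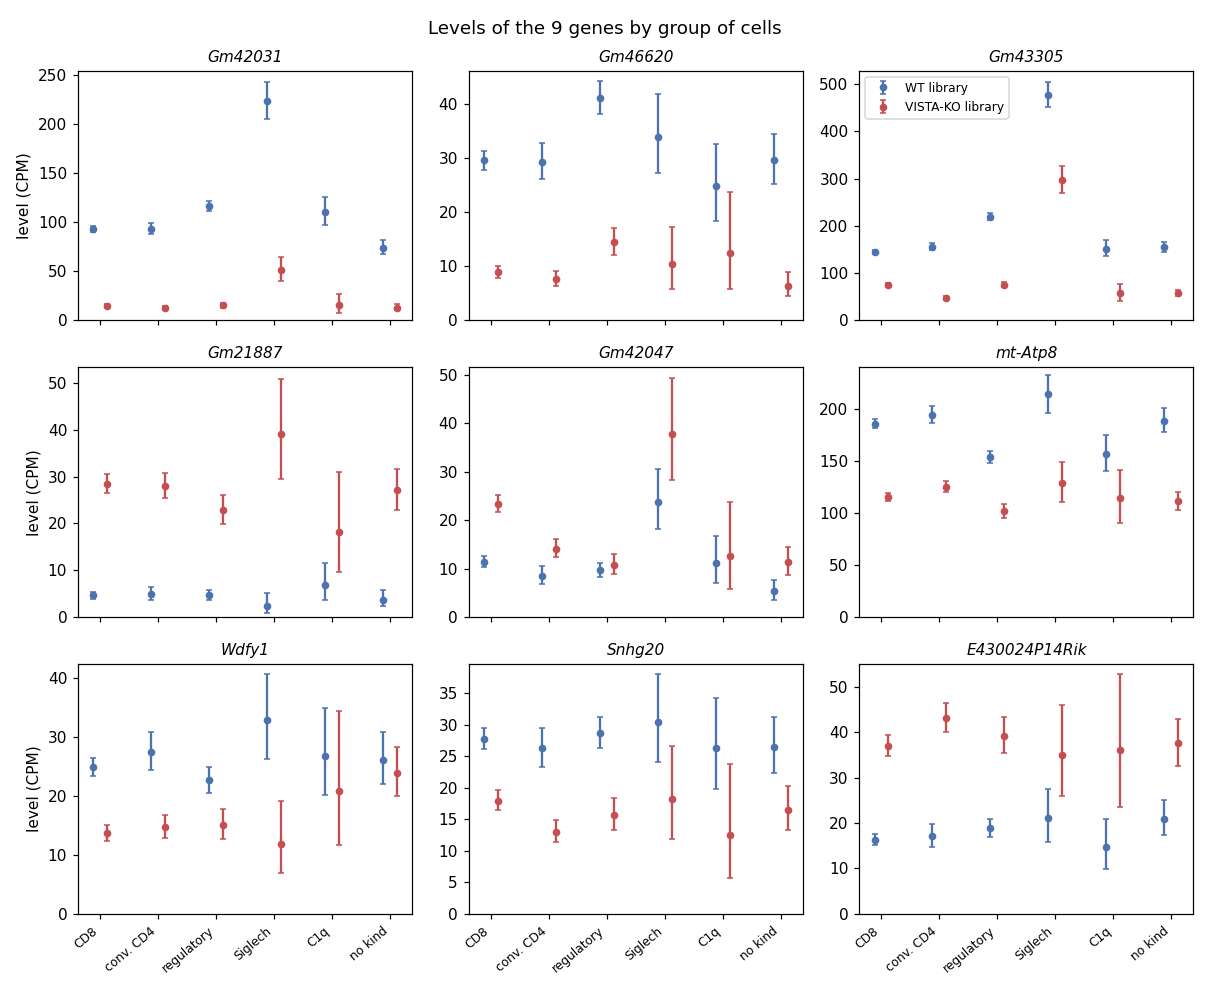
Level of each gene in CPM (y axis, linear, from 0) in 6 groups of cells (x axis) of the WT and the VISTA-KO library, with exact 95% Poisson intervals as bars. Gm42031 stood at 92.8 and 14.96 CPM in CD8 cells, whereas Gm42047 differed little in regulatory and C1q cells.

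Gm42031 had the largest ratio of the 9 genes in conventional CD4, regulatory and C1q cells, and in CD8 cells it was level with Gm21887. In CD8 cells it stood at 92.8 CPM in WT (89.7 to 95.9, exact 95% Poisson interval, counting error only) and at 14.96 CPM in VISTA-KO (13.6 to 16.5). Levels in conventional CD4 cells were 93.6 and 12.5 CPM, and those in regulatory cells 117 and 15.4 CPM. These T cell kinds each had a level in WT at least 6.20-fold that in VISTA-KO, with intervals of 5.61 to 6.87 in CD8, 6.41 to 8.73 in conventional CD4 and 6.41 to 9.01 in regulatory cells. Siglech cells had the highest level in both libraries, 224 and 51.7 CPM, 4.33-fold higher in WT (3.39 to 5.59). The 125 WT and 96 VISTA-KO Siglech cells without a receptor contig and without a Cd3 UMI had 239 and 52.5 CPM, a ratio of 4.55 (3.30 to 6.40). Most of these still had a UMI of Cd4, Cd8a or Cd8b1. Only 10 WT and 14 VISTA-KO Siglech cells met no other definition, and in them the log2 ratio was -1.56, against -2.01 over all Siglech cells. The log2 ratio in conventional CD4 cells was -2.36 without cells of more than 1 kind, against -2.49 with them.

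Gm43305 was also lower in VISTA-KO in each kind, by smaller and less even ratios. Its CD8 levels were 144 CPM (140 to 148) and 74.7 CPM (71.6 to 78.0), 1.93-fold higher in WT (1.83 to 2.03). In conventional CD4 cells it was 155 and 47.3 CPM, 3.29-fold (3.01 to 3.58), and in regulatory cells 219 and 75.4 CPM, 2.91-fold (2.69 to 3.15). Without cells of more than 1 kind, the log2 ratio in conventional CD4 cells was -1.56, against -1.62 with them. The CD8 interval did not overlap those of the other T cell kinds, but the CD8 value depended in part on expanded clonotypes. Its log2 ratio of -0.90 became -1.10 without the largest clonotype of each library. Without clonotypes of at least 30 cells, an alternative chosen after seeing the data, it was -1.11. Siglech cells again had the highest level, 478 and 296 CPM, and the smallest ratio, 1.61-fold (1.44 to 1.80), which was 1.66-fold in those without contig or Cd3 UMI. Gm43305 and Gm42031 thus shared the direction and the high level in Siglech cells, but not the size of the difference.

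Gm46620 was at low levels and lower in VISTA-KO throughout. CD8 cells had 29.7 CPM (27.9 to 31.5) and 8.87 CPM (7.81 to 10.04), 3.34-fold higher in WT (2.91 to 3.85), and at 41.2 and 14.4 CPM in regulatory cells. In C1q cells 51 UMIs in WT and 9 in VISTA-KO gave 24.8 and 12.5 CPM, with an interval of the ratio that included 1 (0.968 to 4.59). The call there exceeded the fold but not the counting error.

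Gm21887 was the member with the largest ratio upwards. CD8 cells had 4.60 CPM (3.93 to 5.34) and 28.5 CPM (26.5 to 30.5), 6.20-fold higher in VISTA-KO (5.25 to 7.35). Conventional CD4 cells had 4.83 and 28.1 CPM and regulatory cells 4.59 and 22.8 CPM. Siglech cells had 6 UMIs in WT and 56 in VISTA-KO, 2.34 and 39.1 CPM, a ratio of 16.7 with a wide interval (7.21 to 47.5). The Siglech cells without contig or Cd3 UMI had 3.88 and 36.2 CPM. In C1q cells, with 14 and 13 UMIs, it was below the level needed for a call. Gm47283, a low-level gene fixed on a list of sex-linked and pseudoautosomal genes, stood at 6.38 and 15.7 CPM in CD8 cells, 2.46-fold higher in VISTA-KO (2.10 to 2.90), but under 20 CPM in both libraries and all 5 kinds. Where the annotation holds near-identical copies of a gene, reads can be split between them or lost, so that the level of Gm21887 is uncertain.

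E430024P14Rik was higher in VISTA-KO in each kind and moved with Tagap. CD8 cells had 16.3 CPM (15.1 to 17.7) and 37.0 CPM (34.8 to 39.3), 2.27-fold higher (2.05 to 2.51), and the ratio was 2.53 (2.14 to 2.99) in conventional CD4 and 2.08 (1.80 to 2.42) in regulatory cells. Siglech cells had 21.1 and 34.95 CPM, and C1q cells 14.6 and 36.1 CPM. In Siglech cells without contig or Cd3 UMI the levels were 20.4 and 32.7 CPM, with an interval of the ratio that included 1 (0.878 to 2.97). Tagap, a gene induced on T cell activation, stood at 94.0 and 186 CPM in CD8 cells and had log2 ratios between 0.63 and 1.08 in the 5 kinds. Across the 10 combinations of kind and library the log2 levels of Tagap and E430024P14Rik had a Pearson correlation of 0.988, the highest of all genes measured in all 5 kinds. These points share libraries and depth. The 2 genes overlap on opposite strands, and whether reads of 1 gene were counted for the other was not tested. Other neighbors of E430024P14Rik, Rnaset2b, Ezr, Sytl3, Rnaset2a and Mpc1, stayed under 0.5 in every kind.

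mt-Atp8 was lower in VISTA-KO while the rest of the mitochondrial genome was level. CD8 cells had 186 CPM (181 to 190) and 115 CPM (111 to 119), 1.61-fold higher in WT (1.55 to 1.68), and at 154 and 102 CPM in regulatory cells. Its log2 ratios lay between -0.71 in Siglech cells and -0.44 in C1q cells. Of the 12 other mitochondrial coding genes, 11 were measured in CD8 cells and none passed in either direction, with log2 ratios from -0.24 to 0.13 and a median of -0.01, against a median of -0.02 over all measured genes. The overlapping mt-Atp6 stood at 1511 and 1631 CPM, with a log2 ratio of 0.11. Of 16 nuclear ATP synthase genes, all measured, none passed in any kind, and their median was -0.01 in CD8 and -0.12 in regulatory cells. Summed over the 12 other mitochondrial genes, the CD8 levels were 9539 and 9403 CPM.

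**Figure D2:**
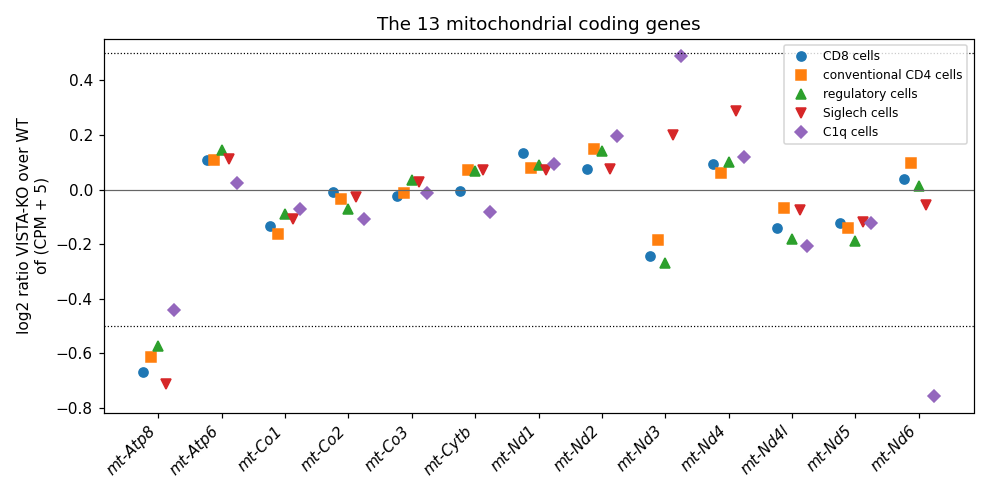
Log2 ratio of VISTA-KO over WT (y axis, of CPM + 5) for the 13 mitochondrial coding genes (x axis) in 5 kinds of cells, with dotted lines at the fold used for calls. mt-Atp8 lies between -0.71 and -0.44 and mt-Atp6 between 0.02 and 0.14. Points of genes below the level needed for a call, such as mt-Nd6 in C1q cells, are drawn too.

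Wdfy1 was lower in VISTA-KO in CD8, conventional CD4 and Siglech cells and less so elsewhere. CD8 cells had 24.8 CPM (23.2 to 26.5) and 13.7 CPM (12.3 to 15.1), 1.82-fold higher in WT (1.61 to 2.05). In Siglech cells it had 32.8 and 11.9 CPM, and in regulatory cells 22.6 and 15.1 CPM, a log2 ratio of -0.46. A single cell held 20 of the 145 VISTA-KO UMIs in regulatory cells, and its part in that ratio was not tested. Wdfy1 passed in 3 kinds as reported. It passed in 4 without cells with at least 2 UMIs of melanoma genes, and in 1 with a pseudocount of 20 CPM. The intervals in C1q cells, 20.2 to 34.8 and 11.7 to 34.4 CPM, overlapped. Among 13 genes of the WDFY family, endosomal FYVE proteins and the receptors WDFY1 is known to serve, 4 were measured in CD8 cells and none passed, with log2 ratios from -0.17 to 0.07. Mrpl44, which shares 126 bases with Wdfy1, had a log2 ratio of -0.18 in CD8 cells.

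Snhg20 was lower in VISTA-KO by a small and even ratio. CD8 cells had 27.8 CPM (26.1 to 29.6) and 17.9 CPM (16.4 to 19.6), 1.55-fold higher in WT (1.39 to 1.73). The log2 ratio of -0.52 was at the border of a call, and with ratios centered on the median gene it was -0.49. Conventional CD4 cells had 26.3 and 13.03 CPM, the largest of its differences among T cell kinds. In Siglech cells without contig or Cd3 UMI the levels were 24.3 and 21.0 CPM, a ratio of 1.16 (0.605 to 2.25), so that the call made over all Siglech cells was not met there. Of 15 other small nucleolar RNA host genes in the tables, 8 were measured in CD8 cells and none passed, with a median log2 ratio of 0.002. Snhg15 was higher in VISTA-KO conventional CD4 (25.8 and 40.3 CPM) and regulatory cells (27.4 and 47.5 CPM), opposite to Snhg20. The 6 measured neighbors of Snhg20 had log2 ratios from -0.67 to 0.37 over the 5 kinds, and the only 1 of these past the fold was Mettl23 in C1q cells.

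Gm42047 was higher in VISTA-KO CD8 and Siglech cells only by the call used. CD8 cells had 11.4 CPM (10.4 to 12.5) and 23.4 CPM (21.7 to 25.3), 2.05-fold higher (1.81 to 2.32). Siglech cells had 23.8 and 37.7 CPM, a ratio of 1.58 (1.08 to 2.32), and those without contig or Cd3 UMI 29.1 and 39.7 CPM, a ratio of 1.36 (0.809 to 2.31). Conventional CD4 cells had 8.55 and 14.1 CPM, a ratio of 1.65 (1.29 to 2.12), below the level needed for a call. Regulatory cells had 9.67 and 10.8 CPM, and the interval of their ratio included 1 (0.869 to 1.43). The CD8 value rested largely on expanded clonotypes: without clonotypes of at least 30 cells, an alternative chosen after seeing the data, the log2 ratio was 0.33 in place of 0.79.

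**Figure D3:**
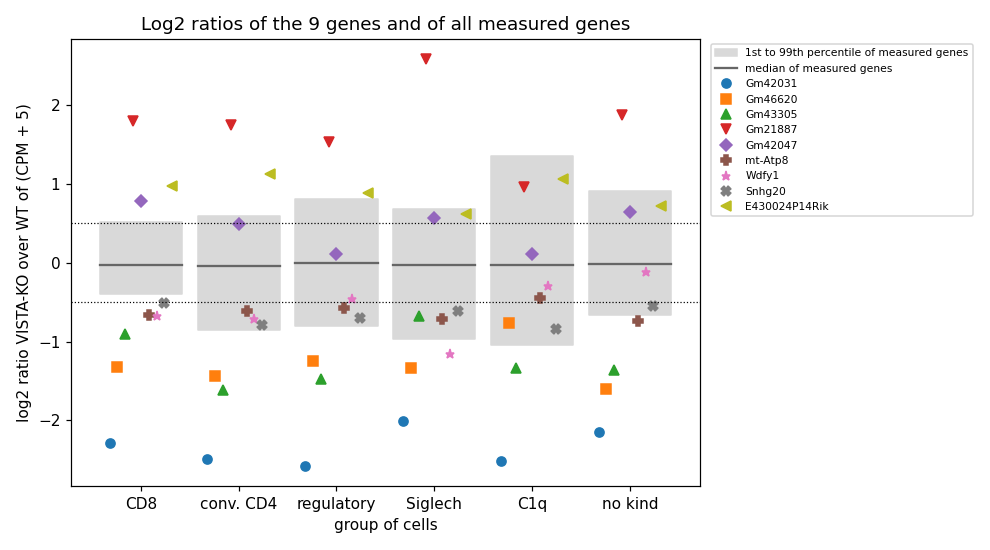
Log2 ratio of VISTA-KO over WT (y axis, of CPM + 5) for the 9 genes in 6 groups of cells (x axis), with dotted lines at the fold used for calls. Gray bands span the 1st to 99th percentile of all measured genes and gray lines their median. Gm42031 lies below the band in each group, and the band is widest in C1q cells (-1.04 to 1.36).

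Cells that met none of the 5 definitions played no part in the choice of genes, although they come from the same 2 libraries. These were 1363 WT and 1260 VISTA-KO cells, with medians of 3422 and 3728 UMIs. Of them, 96.6% and 96.7% had a UMI of Cd3d, Cd3e or Cd3g, and 81.3% and 77.9% a receptor contig. Most were thus T cells too, not a further cell type. Among their measured genes 4.94% passed, 2.78% higher and 2.16% lower. Gm42031 had 74.3 CPM (67.2 to 81.9) and 12.9 CPM (10.1 to 16.2), and Gm21887 had 3.71 and 27.0 CPM. Gm46620, Gm43305, mt-Atp8 and Snhg20 were past the fold downwards and E430024P14Rik upwards, with log2 ratios of -1.60, -1.36, -0.74, -0.55 and 0.72. Wdfy1 was not, at 26.1 CPM (22.0 to 30.8) and 23.8 CPM (19.9 to 28.2), and Gm42047 was below the level needed for a call. A single cell held 18 of the 133 VISTA-KO UMIs of Wdfy1 in this group. Of the 9 genes, 7 thus passed in the direction they had in the T cell kinds.

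In CD8 cells the share of cells with a UMI had the direction of the level for all 9 genes. The shares come from the same UMIs that chose the genes, so that this direction is largely built in. The same counts over all genes are not given. After thinning each cell to 2000 UMIs, which left out 290 WT and 186 VISTA-KO CD8 cells, Gm42031 was seen in 10.7% of WT (9.86 to 11.6, exact binomial interval) and 2.09% of VISTA-KO CD8 cells (1.68 to 2.57). Without thinning the shares were 26.7% and 7.72%. For Gm21887 the thinned shares were 0.704% and 5.40%, and the unthinned ones 2.70% and 15.03%. In C1q cells the thinned shares had that direction for 7 of the 9 genes and in Siglech cells for 8, the exceptions being Gm42047 and mt-Atp8 in C1q and E430024P14Rik in Siglech cells. No cell type in the tumor is known to lack these transcripts, so that no share could be set as background.

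CD8 cells were further split by their UMIs, a split chosen after seeing the data, into cells with Mki67, a gene of dividing cells (834 WT and 673 VISTA-KO), cells with Pdcd1, which encodes PD-1, but no Mki67 (2457 and 1750), cells with Ccr7, a gene of naive and memory T cells, but neither of these (367 and 452), and the rest (1891 and 1475). Gm42031 was highest in Mki67 cells of both libraries, at 171 and 30.2 CPM, against 51.4 and 9.72 CPM in the rest. Its ratio of WT over VISTA-KO nevertheless lay between 5.29 and 7.23 in all 4. Gm43305 was likewise highest in Mki67 cells, at 270 and 174 CPM, where its ratio was smallest, 1.55, against 2.38 to 2.70 in the other 3. Gm42047 differed most in Mki67 cells, at 21.3 and 53.6 CPM, a ratio of 2.52 (2.14 to 2.97), and in the rest the interval of its ratio included 1 (0.914 to 2.07). E430024P14Rik was lowest in Mki67 cells of both libraries, at 12.1 and 21.0 CPM, and its ratio lay between 1.74 and 2.51. mt-Atp8 was highest in the cells with Ccr7, 266 and 170.2 CPM, with ratios of WT over VISTA-KO between 1.52 and 1.71.

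**Figure D4:**
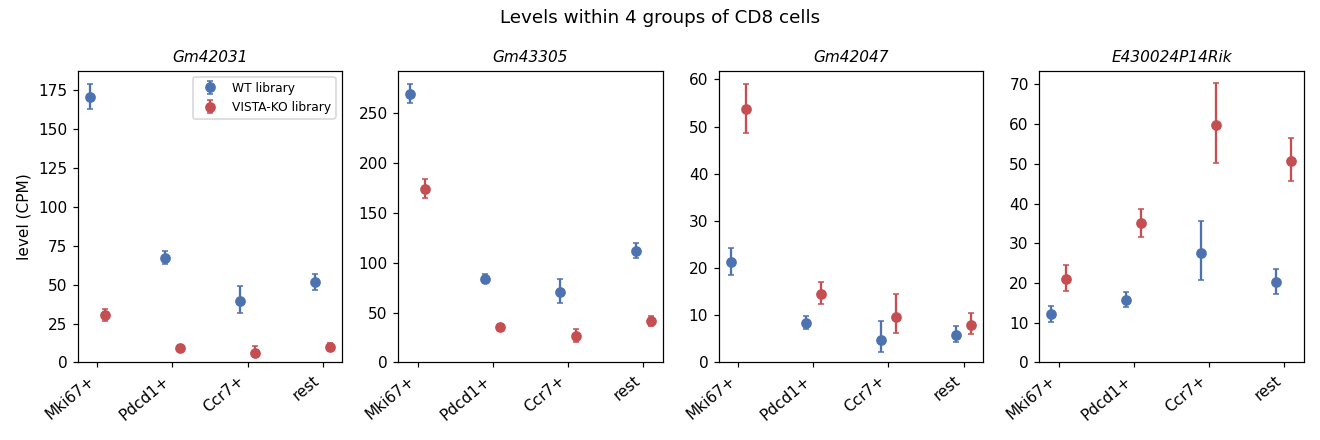
Level in CPM (y axis, linear, from 0) of 4 of the genes in CD8 cells with Mki67, with Pdcd1 but no Mki67, with Ccr7 but neither of these, and the rest (x axis), for both libraries, with exact 95% Poisson intervals. Gm42031 differs in all 4 (ratios of 5.29 to 7.23) and Gm42047 mainly in Mki67 cells (21.3 and 53.6 CPM).

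Cells of 1 clonotype, with the same V genes and CDR3 nucleotides of alpha and beta chain, stem from 1 T cell and so in general from 1 animal of the pool, although equal rearrangements can arise in several. They are no replicates of a genotype, and only show how levels spread below the pool. Clonotypes could be set for 7040 WT and 7506 VISTA-KO cells, of which 18 in WT and 11 in VISTA-KO had at least 30 cells. Of 2953 and 4413 clonotypes, 3 occurred in both libraries. The median over clonotypes differed in the direction of the pool for each of the 9 genes. Most of these cells are among those whose UMIs chose the genes, so that this direction is largely built in.

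Gm42031 varied widely between WT clonotypes, from 0 to 232 CPM with a median of 65.5 CPM, and from 0 to 25.5 CPM with a median of 10.6 CPM in VISTA-KO. The largest WT clonotype (1063 cells) had 54.2 CPM (48.0 to 61.0) and the next (323 cells) 134 CPM (119 to 150). A WT clonotype of 76 cells had 0 of 259586 UMIs, which allows a level of up to 11.6 CPM. The ranges of the libraries overlapped, since WT clonotypes of 76, 36 and 30 cells lay within the VISTA-KO range. Levels were higher in clonotypes with more UMIs per cell, with a Pearson correlation of log2 values of 0.66 over 18 WT and 0.38 over 11 VISTA-KO clonotypes, and the part of depth and cell state in this spread was not tested.

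Gm43305 overlapped more. It ran from 35.4 to 215 CPM over WT and from 2.94 to 168 CPM over VISTA-KO clonotypes, with medians of 101 and 53.1 CPM. The 2 largest VISTA-KO clonotypes differed strongly: that of 292 cells had 168 CPM (151 to 186) and that of 150 cells 4 of 1360570 UMIs, 2.94 CPM (0.801 to 7.53), although both were CD8 cells. The same pair had Gm42031 at 25.5 CPM (19.4 to 33.0) and 1.47 CPM (0.178 to 5.31), and Gm42047 the other way, at 37.9 and 91.1 CPM. Over clonotypes, log2 levels of Gm42031 and Gm43305 correlated at 0.55 in WT and 0.71 in VISTA-KO.

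Gm21887 was at 0 UMIs in 10 of 18 WT and in none of 11 VISTA-KO clonotypes. The largest WT clonotype had 0 of 5125570 UMIs, which allows up to 0.585 CPM. The 9 other zeros allow up to 7.22 to 26.5 CPM, which lies within the VISTA-KO range, so that at their depth they do not separate the libraries. The WT clonotype of 323 cells had 9.93 CPM (6.22 to 15.04), and those of 44 cells had 10.4 CPM (3.82 to 22.6) and 27.0 CPM (16.2 to 42.1). VISTA-KO clonotypes ran from 4.38 to 62.8 CPM with a median of 17.6 CPM. The largest WT clonotype thus lay below the VISTA-KO range. All WT clonotypes with a UMI lay within that range, except that of 81 cells at 2.88 CPM.

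mt-Atp8 ran from 108 to 228 CPM over WT and from 73.3 to 126 CPM over VISTA-KO clonotypes, with medians of 171 and 98.7 CPM. The largest clonotypes had 149 CPM (139 to 160) and 81.5 CPM (70.2 to 94.1). mt-Atp6 had medians of 1360 and 1354 CPM over the same clonotypes.

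Wdfy1 had medians of 18.4 and 8.82 CPM, but a VISTA-KO clonotype of 59 mostly conventional CD4 cells had 77.6 CPM (48.6 to 117), above every WT clonotype. That value is 22 UMIs and may rest on few cells. A VISTA-KO cell of no kind held 18 Wdfy1 UMIs, and whether it belongs to this clonotype was not tested. The largest WT clonotype had 36.1 CPM (31.1 to 41.7) and the largest VISTA-KO clonotype 4.40 CPM (2.11 to 8.10). E430024P14Rik overlapped between libraries, with medians of 16.1 and 22.9 CPM and ranges of 2.88 to 40.5 and 9.09 to 52.7 CPM. Snhg20 had medians of 28.3 and 16.3 CPM, and Gm46620 of 28.1 and 4.38 CPM, in overlapping ranges of 17.7 to 57.7 against 0 to 25.0 CPM and of 12.3 to 54.0 against 0 to 18.4 CPM.

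**Figure D5:**
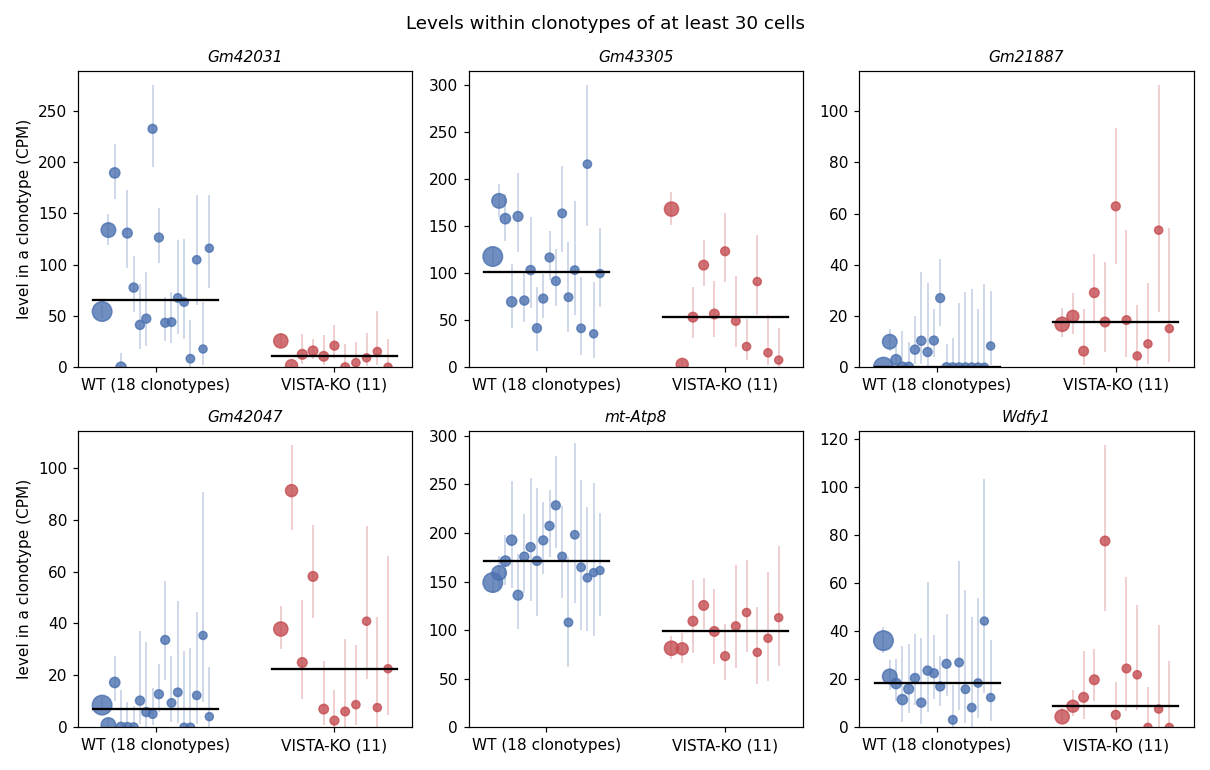
Level in CPM (y axis, linear, from 0) of 6 of the genes in each clonotype of at least 30 cells, 18 in WT and 11 in VISTA-KO, in order of size from left to right within a library. Points grow with the number of cells, bars are exact 95% Poisson intervals and black lines medians over clonotypes. Gm42031 runs from 0 to 232 CPM in WT, and 10 WT clonotypes are at 0 for Gm21887.

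Apart from Tagap, the nearest measured genes other than T cell receptor segments seldom passed the fold. Receptor segments were left out of the neighbors, so that any between Gm43305 and its listed neighbors are not covered. The 6 neighbors of Gm42031 (Man2b1, Wdr83os, Wdr83, Vps35, Orc6 and 4921524J17Rik) passed the fold in 1 of 30 combinations with a kind, Orc6 in C1q cells. Those of Gm43305 (Dad1, Trac, Tox4, Oxa1l, Mrpl52 and Lrp10) passed in none, and of the 30 combinations for Wdfy1 only Chpf in Siglech cells did. Of the 3 measured neighbors of Gm21887 (Hccs, Msl3 and Prps2) none passed. The neighbors of Vsir passed in 6 of 30, through Prf1, the perforin gene, and Psap.

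Genes whose pattern over the 10 combinations of kind and library was most like a member's were mostly genes with small shifts. Gclm, a glutathione synthesis gene, was nearest to Gm42031 (Pearson r of log2 levels 0.963) and to mt-Atp8 (0.954), and had log2 ratios from -0.50 to -0.26. Snhg20 was nearest to Gm46620 (0.900) and Tmem181a to Gm43305 (0.967). Selenow was nearest to Gm21887 (0.903), Psme1 to Gm42047 (0.920), Tia1 to Wdfy1 (0.916), and Gm42031 to Snhg20 (0.943). With 10 points that share libraries, such values are descriptions only.

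Besides the members, 9 genes passed in all 5 kinds with 1 direction. Those higher in VISTA-KO were Nfkbid, Nr4a1, Rgcc, Dusp5, Tgif1, Tagap and Gbp6, several of them induced by receptor signals, with smallest log2 ratios from 0.91 for Nfkbid to 0.57 for Gbp6. Nr4a1, an immediate-early gene of T cell receptor signaling, stood at 127 and 370 CPM in CD8 cells. Lower were Trbv12-2, a receptor segment whose level follows single clonotypes, and Tsc22d3, a glucocorticoid-induced gene, at 332 and 194 CPM. Kdm6b, Ier2 and Vps37b on the upper side and Rsrp1, Sdhaf1, Pnisr, Trav13-1, Lxn, Glipr1, Mxd4 and Tmem181a on the lower side came next, with smallest log2 ratios of 0.44 to 0.48 and of -0.43 to -0.28.

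Lists that bear on strain, sex and handling were set beside the members. Of 7 genes known to differ between C57BL/6 substrains, Cyfip2 and Dock2 were measured, with log2 ratios of 0.02 and 0.04 in CD8 cells. A difference in the gene need not change its RNA level, so that these ratios do not tell the substrain. Nnt, which is disrupted in C57BL/6J, had 33 UMIs in all WT and 20 in all VISTA-KO cells, 0.458 and 0.334 CPM, so that its level was too low to compare, and Crb1 and Mmrn1 had none. Xist, which silences the inactive X chromosome in females, stood at 285 and 305 CPM in CD8 cells. The Y-linked Ddx3y, Eif2s3y and Uty were at 0 in CD8 cells of both libraries. Kdm5d, the list's other Y-linked gene, was not among the 3 genes at 0 there, and its level is not given. In Xist, Ddx3y, Eif2s3y and Uty, with Kdm5d left out, the CD8 cells of both pools had the pattern of female cells. Whether some pooled cells were male was not tested. Of 12 dissociation and heat shock genes, 11 were measured in CD8 cells and 2 passed, both higher in VISTA-KO (Junb and Ier2), and in regulatory cells 6 were higher and 2, Hspa1a and Hspa1b, lower. Markers of B, NK and gamma-delta T cells summed to at most 4.68, 5.76 and 11.4 CPM in any of the 5 kinds. The part of these genes in the members' differences was not tested.

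Melanoma RNA differed between the libraries, but in opposite directions in different kinds. Pmel, a melanosome gene, stood at 2.99 and 87.5 CPM in CD8 cells, and at 80.4 and 5.55 CPM in conventional CD4 cells. All 4 measured genes of the melanoma and red cell list were higher in VISTA-KO CD8 and regulatory cells and lower in conventional CD4 cells, and the list's 8 genes summed to 18.2 and 200 CPM in CD8 cells. Few cells carried this RNA: 8 WT and 7 VISTA-KO CD8 cells had at least 2 UMIs of the melanoma genes Mlana, Pmel, Dct, Tyrp1 and Tyr. Without such cells, an alternative chosen after seeing the data, the log2 ratios in CD8 and conventional CD4 cells were -2.28 and -2.50 for Gm42031 and -0.89 and -1.64 for Gm43305, against -2.29, -2.49, -0.90 and -1.62 with them.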

How the data were processed

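RNA of sorted tumor-infiltrating cells was measured in 1 gene expression and 1 receptor library per genotype. The authors aligned reads with Cell Ranger 5.0.0 (version per the file headers) to mouse GRCm38 and deposited unnormalized UMI counts for each gene in each barcode and productive receptor contigs with UMI and read counts. The labels describe a 3′ kit and the methods a 5′ kit with receptors. Cells with at least 600 genes and under 30% mitochondrial UMIs were kept. UMIs were summed per library and kind of cells and scaled to CPM. With 1 library per genotype there was no test. Intervals are exact Poisson, conditional binomial (ratios) or Clopper-Pearson, at 95%, and cover counting error only. CD8 cells held 37431872 UMIs in WT and 28412496 in VISTA-KO, and C1q cells 2054941 and 719721, which sets the precision.

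The members and lists were chosen with earlier results of these data known. Named genes are the members, the 10 further genes in each direction with the largest smallest shift over 5 kinds, the 3 most correlated genes, the 3 measured neighbors on each side of a member and of Vsir, and the lists. Receptor segments were not counted as neighbors. Of the most correlated genes, the nearest is given. Clonotypes were the V gene and CDR3 nucleotides of the top alpha and beta chain. Doublets were kept, and cells with 2 or more beta chains left out in an alternative. Start windows were compared with BLAST 2.17.0. Python 3.11.15, numpy 2.4.6, scipy 1.17.1 and pandas 2.3.3 were used, and the computation was checked on simulated counts.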

Additional observations from a re-analysis of the deposited data

How the results depend on the processing

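Of 630 alternative log2 ratios for the 9 genes in 5 kinds, 568 stayed within the counting interval, 51 moved beyond it and 11 changed sign. The 568 are no measure of stability. Leaving out Siglech and C1q cells with a contig or Cd3 UMI could not change the T cell kinds. Wide intervals also hid large changes, as for Gm46620 in C1q cells, which went from -0.77 to 0 in that setting. The number of genes past the fold in all 5 kinds, 5 as reported, was 2 with a pseudocount of 20 CPM, 1 in cells thinned to 2000 UMIs, 0 without cells of more than 1 kind (10 WT and 14 VISTA-KO Siglech and 6 and 4 C1q cells remained) and 0 for Siglech and C1q cells without a receptor contig or Cd3 UMI (3 and 2 C1q cells remained), and 4 or 5 in the other alternatives. Of 45 combinations of gene and kind, 38 passed, and 25 without cells of more than 1 kind. That last setting turned Gm43305 (0.25), Gm42047 (-1.56), mt-Atp8 (0.17), Snhg20 (1.58) and E430024P14Rik (-0.35) in Siglech cells and Gm21887 (-2.45) in C1q cells. Leaving out cells with a contig or Cd3 UMI turned Gm43305 (4.19) and Snhg20 (2.41) in C1q cells. Thinning turned Gm46620 (0.0796) and E430024P14Rik (-0.36) in Siglech cells, and the mean over cells turned Gm46620 in C1q cells (0.0162). The mean over cells removes no cell and changes the weighting, whereas the other settings leave fewer cells or UMIs. No sign changed in CD8, conventional CD4 or regulatory cells. Of 57 listed genes measured in CD8 cells 6 passed, against 1.78% of all measured genes. These were 4 genes of the melanoma and red cell list and 2 of the dissociation and heat shock list. At a fold of 0.3, 11 passed, for which no share over all genes is given. Over clonotypes of at least 15 cells the medians of all 9 genes had the pool's direction, as with 30, which the choice of the genes largely builds in. No paired analysis was possible because each genotype was 1 library, which also left no replicate to leave out.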
